A study of Rattus norvegicus with 3 samples.

Results

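Keratins were read in single cells of diabetic rat wounds. The family was taken as every gene row whose symbol is Krt followed by digits only, which gave 47 of the 32883 gene rows. Of these members, 25 are type I keratins, 21 are type II keratins and Krt222, a keratin-like gene, is neither. They were placed in groups of 3 basal, 7 suprabasal, 2 wound-induced and 23 hair follicle keratins, with 6 keratins of simple epithelia, 4 of mucosal or corneal epithelia and 2 left ungrouped. Lettered symbols such as Krt6a, Krt6b, Krt33a and Krt33b are outside that rule and were not analysed here. None of these 4 symbols was found among the gene rows read, so ratios of type I to type II keratins leave them out.

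Keratins are the intermediate filament proteins of epithelial cells, and each filament is built from a type I partner paired with a type II partner. In resting epidermis the dividing basal layer makes Krt5 with Krt14, and Krt15 is held by basal cells and by the bulge of the hair follicle. Cells that leave the basal layer turn to Krt1 with Krt10, while keratinocytes at a wound edge turn to Krt16, Krt17 and the lettered Krt6 genes. Krt8 and Krt18 are the pair of simple epithelia, and in skin they are known from Merkel cells and sweat glands.

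The wounds were full-thickness skin wounds of 15 mm on male, wild type SD rats of 8 to 10 weeks, all made diabetic with streptozotocin at 65 mg/kg (glucose over 16.7 mM), and all 3 groups share that treatment. The groups were wounds left untreated, wounds given a hyaluronic acid hydrogel (HAG in the labels) and wounds given a CO-releasing hyaluronic acid hydrogel (COHAG), each taken at 7 days and each measured as 1 droplet library of 3′ transcript ends. They are called the untreated, hydrogel and CO hydrogel libraries. The number of animals behind a library is not given in the labels, so no test between groups was possible. Every interval printed is a 95% interval of counting error only, and higher or lower describes these libraries.

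The matrices held 78233883 transcript molecules (unique molecular identifiers, UMIs) in the untreated library, 109148721 in the hydrogel library and 109718517 in the CO hydrogel library. Keratinocytes were scarce in all of them. A cell passed the keratinocyte gate if it held at least 3 UMIs of Krt5, Krt14 and Krt17 together, making up at least 0.1% of its UMIs, and at least 1 UMI of Sfn or Perp. The gate passed 95 of 10676 untreated cells (0.89%, interval 0.721 to 1.09), 111 of 12653 hydrogel cells (0.877%, 0.722 to 1.06) and 318 of 13144 CO hydrogel cells (2.42%, 2.16 to 2.70). The CO hydrogel library thus had the highest share, but its gated cells were also the shallowest, with a median of 6230 UMIs against 15086 and 12196. These shares depend on the other cells of a library. Neutrophil-like cells outside the gate numbered 5623 untreated, 2359 hydrogel and 453 CO hydrogel cells. With neutrophil-like cells left out of the total, the share was 1.88% untreated, 1.08% hydrogel and 2.51% CO hydrogel. An unnamed cluster that scored nearest to neutrophils (cluster 2) stayed in that total, with 24 untreated, 439 hydrogel and 2 CO hydrogel cells. It lowers the hydrogel share most. The CO hydrogel share was still the highest, but by less over untreated, and the hydrogel share was the lowest.

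The gated cells carried keratinocyte markers in every library. All 11 keratinocyte markers with a row had UMIs, and their summed level, in CPM (UMIs of a gene scaled to the same total in every library), was 12758 for untreated cells, 14708 for hydrogel cells and 13476 for CO hydrogel cells. Sfn and Perp, which the gate used, are among those markers. Most gated cells lay in a single keratinocyte-like cluster that was built without any keratin gene, namely 90, 107 and 259 of them in the same order of libraries. Outside it lay 5, 4 and 59 gated cells, and 47 of the 59 CO hydrogel cells sat in an endothelial-like cluster. Those 47 cells held 15996 CPM of Col1a1, a fibroblast collagen, with 2003 CPM of Krt15, 1170 CPM of Krt5 and no UMI of Krt1, Krt16 or Krt79. Over the whole gate the 8 fibroblast markers, all with UMIs, summed to 2596, 691 and 4315 CPM, and the 8 endothelial markers to 9.31, 25.3 and 87.5 CPM, so both lists were highest in the CO hydrogel library. The 8 neutrophil markers summed to 4769, 21383 and 11251 CPM, mostly S100a8 and S100a9, which activated keratinocytes also make. Their part in the keratin differences was not tested.

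The libraries also shared cell barcodes. The hydrogel and untreated libraries had 364 barcodes in common, the CO hydrogel and untreated libraries 600, and the CO hydrogel and hydrogel libraries 477. Among gated cells, 22 untreated, 6 hydrogel and 17 CO hydrogel cells carried a shared barcode. Results that move without them are given in both forms.

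Promoter sequence was available in RefSeq (build GRCr8) for 34 of the 47 members. A TATA-like motif, spelled TATAA or ATAAAA (the 2 spellings can overlap), was found on the gene strand within the 250 bases before the start site in 32 of the 34 (94.1%). The same search found it in 7547 of 33469 windows of that length (22.5%), or in 32.7% when both strands were searched. Krt1, Krt14, Krt15, Krt16 and Krt17 were among the members without a window, so no wound-induced keratin is shown. The 6 stretches that follow come from members of the basal, suprabasal, simple epithelial and hair follicle groups. Each runs from up to 40 bases before the motif to 14 bases after it, 5′ to 3′ on the gene strand, with the motif in capitals.

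Krt5: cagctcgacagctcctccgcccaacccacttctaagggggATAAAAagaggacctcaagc
Krt10: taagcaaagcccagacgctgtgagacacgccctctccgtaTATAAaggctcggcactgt
Krt8: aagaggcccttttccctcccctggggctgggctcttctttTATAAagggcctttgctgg
Krt18: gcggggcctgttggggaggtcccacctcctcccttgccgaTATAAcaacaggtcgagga
Krt24: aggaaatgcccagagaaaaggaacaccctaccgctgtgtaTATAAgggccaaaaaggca
Krt75: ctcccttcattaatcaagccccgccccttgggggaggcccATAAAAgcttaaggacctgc

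The Krt5 stretch is chr7:134730580-134730639 on the minus strand and its motif begins 30 bases before the annotated start. The Krt10 stretch is chr10:84839171-84839229 (minus strand) with the motif at 29 bases, and the Krt75 stretch is chr7:134576087-134576146 (minus strand) with the motif at 32 bases. In the other three the motif lay farther out, at 104 bases for Krt8 (chr7:135010425-135010483, minus strand), 42 bases for Krt18 (chr7:135036086-135036144, plus strand) and 84 bases for Krt24 (chr10:84733552-84733610, minus strand). A match in these letters is a description only. Of 12 members with a window and at least 20 UMIs in gated cells, 10 held it, and so did all 14 members with a window and no UMI there. The members without it were Krt77 and Krt78.

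Keratin transcripts made up 3.54% of all UMIs of the gated untreated cells, 2.98% of the hydrogel cells and 2.80% of the CO hydrogel cells. Of the 47 members, 30 had a UMI in a gated cell, 19 had at least 20 UMIs over the libraries and 17 were at 0. Type I keratins outnumbered type II keratins by 3.14, 3.22 and 3.12 UMIs to 1, close to the same in each library. Transcripts of closely related keratins (Krt14, Krt16, Krt17 and Krt42, or Krt5, Krt71 and Krt75) may be split or merged by read assignment, and Krt6a, a neighbour of Krt5 in the RefSeq gene order, was not analysed here, so levels of different keratins are compared with that reserve. A UMI marks the 3′ end of a transcript, so the levels need no correction for length.

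**Figure D1:**
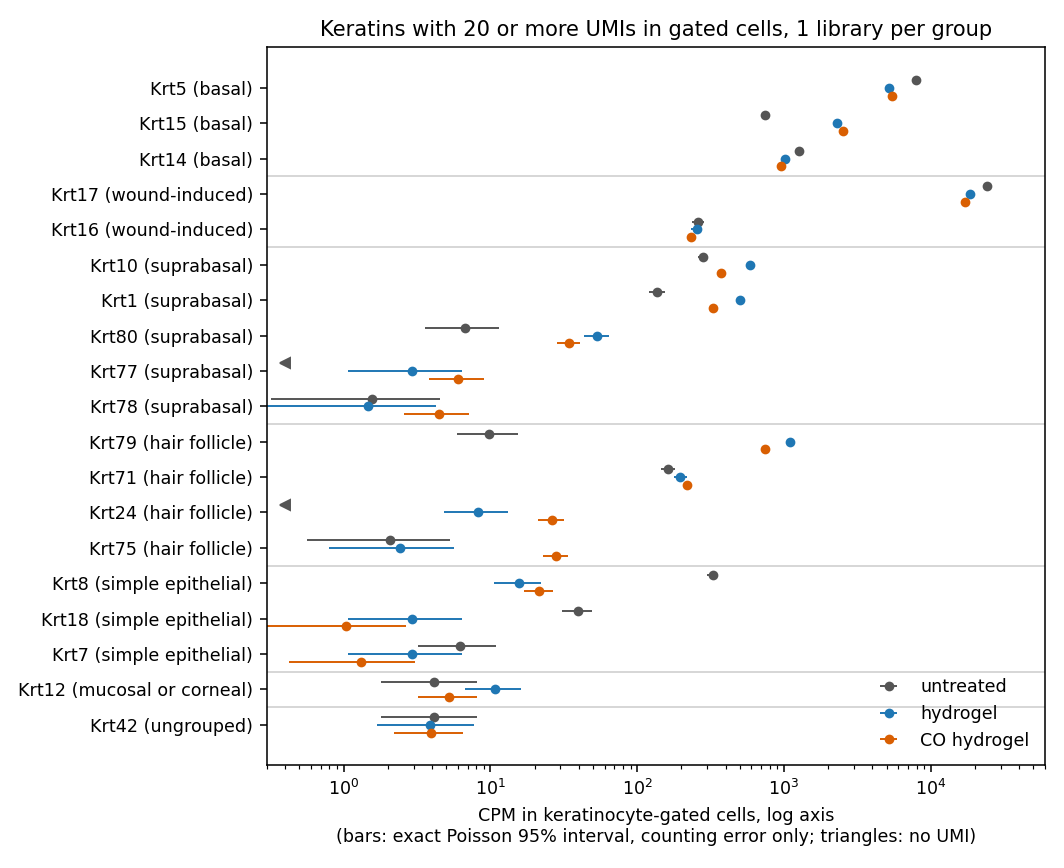
Level of each keratin with at least 20 UMIs in gated cells, in CPM on a log axis, for the untreated, hydrogel and CO hydrogel libraries; bars are exact Poisson intervals of counting error and triangles mark a library with no UMI. Krt17 is the highest keratin in all 3 libraries, the untreated points of Krt8 and Krt18 lie to the right of the treated ones, and the untreated point of Krt79 lies to their left.

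Krt17 was the leading keratin in every library. This type I keratin of wound edges and hair follicles gave 24246.5 CPM in the untreated, 18529.7 CPM in the hydrogel and 17120.4 CPM in the CO hydrogel library, from 46884, 38052 and 65540 UMIs. The untreated level was the highest, and the log2 ratio to it was −0.39 (−0.41 to −0.37) for the hydrogel and −0.50 (−0.52 to −0.48) for the CO hydrogel library. Krt17 is also a gate gene, so its presence in these cells was partly fixed by how they were chosen. With a gate that used no keratin, the wound-induced group still stood lower in both treated libraries, at −0.41 and −0.53. Cells varied widely within each library. They ran from 882 to 46921 CPM with a median of 19774 in the untreated library. In the hydrogel library the median was 14326 CPM. In the CO hydrogel library cells ran from 0 to 67019 CPM with a median of 7974, and 3 gated cells had none. Among the deepest 62 untreated, 79 hydrogel and 181 CO hydrogel gated cells the medians were closer, at 22026, 16263 and 14019 CPM. The lowest of those CO hydrogel cells had 117 CPM.

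Krt16, the other wound-induced type I keratin, was near the same level everywhere. It gave 260 CPM (238 to 284) in the untreated, 255 CPM (234 to 278) in the hydrogel and 233 CPM (218 to 249) in the CO hydrogel library, and these intervals overlap. Its log2 ratio to the untreated library was −0.03 (−0.21 to 0.15) with hydrogel and −0.16 (−0.32 to 0.00) with CO hydrogel. With every cell given equal weight the ratios were −0.62 and −0.99, so its level per cell was lower in the treated libraries by that measure.

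The basal group differed little in its total, but its members went different ways. Krt5, Krt14 and Krt15 summed to 9907 CPM in the untreated, 8510.07 CPM in the hydrogel and 8874 CPM in the CO hydrogel library. The log2 ratio of that sum to the untreated library was −0.22 and −0.16, and 0.16 and 0.26 with every cell given equal weight, so its direction was not stable. Krt5, the type II partner, was highest in the untreated library at 7895 CPM against 5192 and 5410, a log2 ratio of −0.60 (−0.64 to −0.57) with hydrogel and −0.55 (−0.58 to −0.51) with CO hydrogel. Krt14, its type I partner, followed at 1272, 1018 and 956 CPM, with log2 ratios of −0.32 and −0.41. Both are gate genes. There were 6.21, 5.10 and 5.66 UMIs of Krt5 to each of Krt14.

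Krt15, which the gate did not use, ran the other way. It gave 740 CPM (702 to 779) in the untreated library, 2300.39 CPM (2235 to 2367) in the hydrogel library and 2508 CPM (2458 to 2559) in the CO hydrogel library. Both treated libraries stood above the untreated one, by a log2 ratio of 1.64 (1.55 to 1.72) and 1.76 (1.68 to 1.84), and over the alternatives tried the ratios ran from 1.22 to 1.68 and from 1.49 to 1.88. They differed little from each other, at 0.12 (0.07 to 0.18). The count of cells moved with the level: at 1000 UMIs per cell, a Krt15 UMI was found in 17.9% of untreated gated cells, 49.5% of hydrogel ones and 57.6% of CO hydrogel ones (31.6%, 71.2% and 75.2% at full depth). In neutrophil-like cells, which do not make Krt15, the shares at 1000 UMIs were 0.17%, 0.44% and 0.82%, at median depths of 1950, 1804 and 1308 UMIs before thinning. In the untreated library the 2 highest of 30 cells with Krt15 held 43.7% of its UMIs.

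Krt15 cells had a profile of their own within the keratinocyte-like cluster. At 1000 UMIs per cell, 15 untreated, 50 hydrogel and 141 CO hydrogel gated cells there held a Krt15 UMI, against 64, 49 and 110 that did not. Cxcl14, a chemokine of skin epithelium, was at 1511 CPM in untreated cells with Krt15 and 311 CPM in those without. It was at 1005 against 317 CPM in the hydrogel library and at 2462 against 259 CPM in the CO hydrogel library. Cxcl14 was also among the leading genes of a fibroblast-like cluster, and fibroblast markers in these gated cells summed to 1424, 681 and 1948 CPM. The part of Cxcl14 that came from other cells was not tested. Krt17 was lower in the Krt15 cells, at 13031 against 26744 CPM in the untreated, 14994 against 21672 CPM in the hydrogel and 11727 against 22176 CPM in the CO hydrogel library. Krt16 was also lower there, with 37.6 against 377 CPM in the CO hydrogel library. The direction was the same in all 3 libraries for these genes. Dmkn, a secreted protein of differentiating keratinocytes, was lower in Krt15 cells too, at 283 against 1080 CPM, 824 against 2554 CPM and 774 against 1887 CPM.

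**Figure D2:**
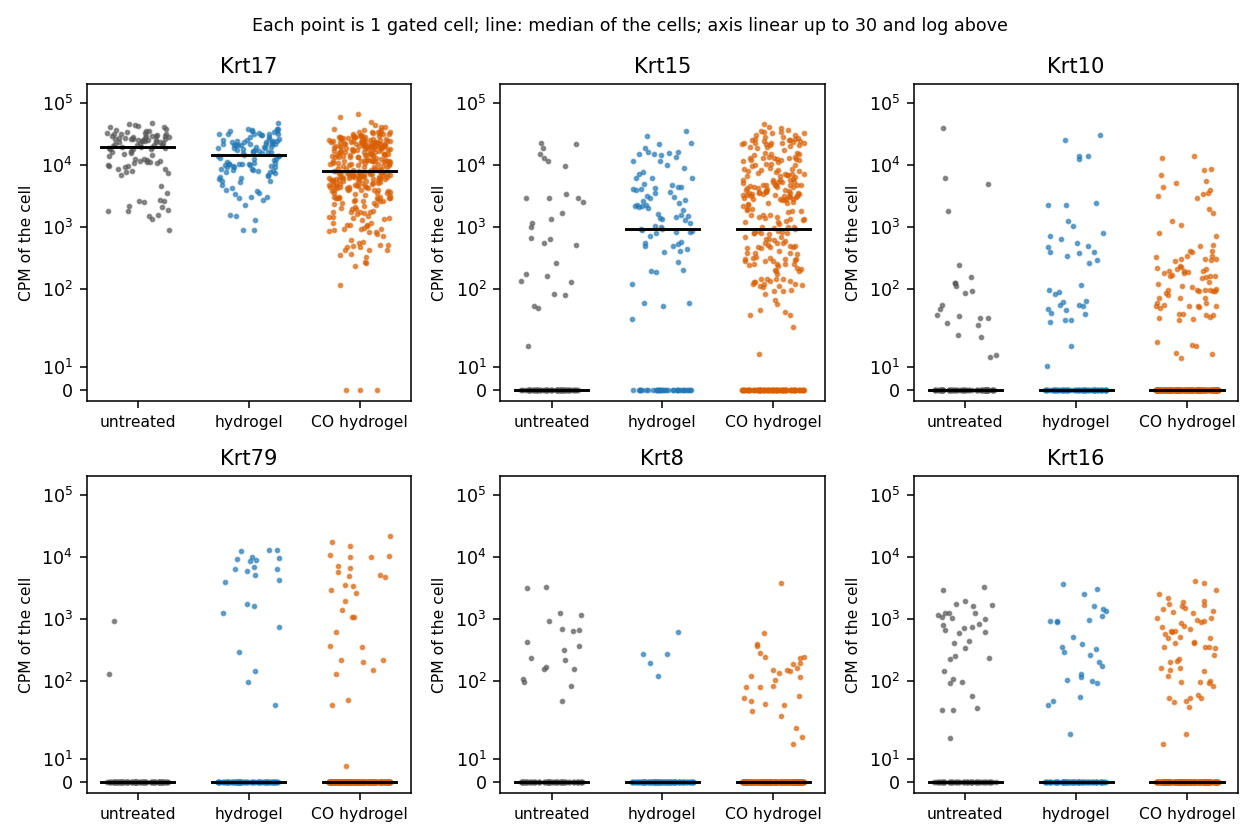
Levels of Krt17, Krt15, Krt10, Krt79, Krt8 and Krt16 in each gated cell of the 3 libraries, in CPM on an axis that is linear up to 30 and log above; each point is 1 cell and the line is the median of the cells. Most untreated cells have no Krt15 (65 of 95), while 32 of 111 hydrogel and 79 of 318 CO hydrogel cells have none.

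The suprabasal keratins were low in all libraries and uneven between cells. Krt1, the type II partner, gave 137 CPM (121 to 155) in the untreated, 503 CPM (473 to 535) in the hydrogel and 329 CPM (311 to 348) in the CO hydrogel library. Krt10, its type I partner, gave 281 CPM (258 to 306), 590.19 CPM (557 to 624) and 372 CPM (353 to 392). The hydrogel library was highest for both. The log2 ratio of hydrogel to untreated was 1.88 (1.68 to 2.08) for Krt1 and 1.07 (0.92 to 1.22) for Krt10, and of CO hydrogel to untreated 1.27 (1.07 to 1.46) and 0.41 (0.26 to 0.55).

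These values rest on few cells. In the untreated library 2 cells held 82.3% of the 265 Krt1 UMIs and 2 cells held 89.3% of the 543 Krt10 UMIs, and both of the Krt10 cells carried a barcode that another library also had. Without shared barcodes the log2 ratio of hydrogel to untreated was 2.28 for Krt1 and 4.205 for Krt10, and that of CO hydrogel to untreated 1.74 and 3.61. With every cell given equal weight, Krt10 was lower in the CO hydrogel than in the untreated library, at −0.84. At 1000 UMIs per cell, Krt10 was found in 4.76%, 12.9% and 9.54% of gated cells (24.2%, 36.0% and 27.99% at full depth), against 0.15%, 1.01% and 1.64% of neutrophil-like cells.

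Which treated library was higher turned with doublet removal. Of cells passing the gate, 8 untreated, 43 hydrogel and 108 CO hydrogel cells had been removed as likely doublets. The removed CO hydrogel cells held 6893 CPM of suprabasal keratins, with Krt1 at 2903 CPM and Krt10 at 3959 CPM, against 747 CPM in the cells that were kept. With removed cells put back, the suprabasal group stood at 378, 983 and 2572 CPM and the log2 CO hydrogel to hydrogel ratio was 1.39 in place of −0.63 (−0.70 to −0.55). The removed CO hydrogel cells had 13145 CPM of keratinocyte markers, near the 13476 CPM of the kept ones, with 18137 against 4315 CPM of fibroblast markers and 20598 against 11251 CPM of neutrophil markers. Their part in the result was not tested.

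**Figure D3:**
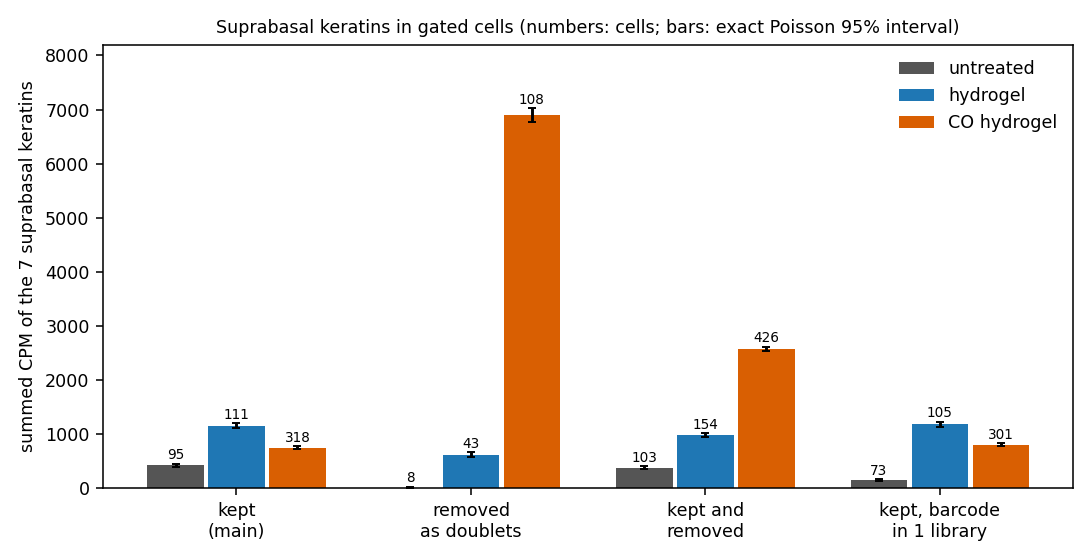
Summed level of the suprabasal keratins in CPM, by library, for gated cells that were kept, removed as doublets, kept or removed together, and kept with a barcode found in 1 library only; numbers over the bars count cells and error bars are exact Poisson intervals. The kept CO hydrogel cells stand at 747 CPM and the removed ones at 6893 CPM.

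Krt1 and Krt10 often shared cells. Within the keratinocyte-like cluster at 1000 UMIs per cell, the untreated library had Krt1 in 3 of its 4 Krt10 cells, the hydrogel library in 7 of 13 and the CO hydrogel library in 12 of 27, against 2.67%, 2.33% and 4.91% of cells without it. Krt15 was found in 0 of these 4, 3 of 13 and 10 of 27 Krt10 cells, against 20%, 54.7% and 58.5% of the other cells. The cells with Krt1 or Krt10 also held more Dmkn in every library, at 2283 against 846 CPM, 3368 against 1564 CPM and 2732 against 1217 CPM, and less Col17a1, the hemidesmosome collagen of basal cells, at 501 against 1253 CPM, 259 against 766 CPM and 348 against 810 CPM. Krt16 was higher in them, at 359 against 254 CPM, 729 against 196 CPM and 637 against 172 CPM.

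Of the minor suprabasal keratins, Krt80 and Krt77 were lowest in the untreated library. Krt80, a type II keratin of differentiating epithelia, gave 6.72, 53.1 and 34.2 CPM, which is a log2 ratio of 2.98 (2.15 to 3.94) for hydrogel and 2.35 (1.52 to 3.29) for CO hydrogel over untreated. Krt77 had no UMI in the untreated library, where 3 counts would be 1.55 CPM and the interval of a count of 0 reaches 1.91 CPM. In the treated libraries Krt77 had 2.92 and 6.01 CPM. Krt78 had 3, 3 and 17 UMIs, or 1.55, 1.46 and 4.44 CPM, near the same in the untreated and hydrogel libraries. Krt2 and Krt9, keratins of the upper epidermis and of palm and sole skin, had 5 UMIs and 1 UMI over all gated cells.

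Krt79 gave the largest ratio to the untreated library among keratins with a UMI in that library. Krt79 is a type II keratin known from the hair follicle infundibulum and the sebaceous duct. It had 19 UMIs in 2 untreated cells, 2240 UMIs in 23 hydrogel cells and 2843 UMIs in 32 CO hydrogel cells, or 9.83 CPM (5.92 to 15.3), 1091 CPM (1046 to 1137) and 743 CPM (716 to 771). The log2 ratio was 6.79 (6.15 to 7.53) for hydrogel and 6.24 (5.59 to 6.97) for CO hydrogel over untreated, and over the alternatives tried it stayed within 5.63 to 6.84 and 5.18 to 6.32, with the lowest value of each coming when doublets were not removed. A handful of cells set these levels: 1 hydrogel cell held 42.1% and 1 CO hydrogel cell held 32.4% of its library's Krt79 UMIs. At 1000 UMIs per cell the share of gated cells with a Krt79 UMI was 1.19%, 14.9% and 7.57% (2.11%, 20.7% and 10.1% at full depth), against 0.07%, 0.40% and 0.27% of neutrophil-like cells. Endothelial-like cells outside the gate had 1.94%, 1.47% and 1.05%. Their level was 33.9, 13.1 and 6.95 CPM, so in the untreated library it lay above that of the gated cells. The gate held 8.02%, 85.6% and 92.3% of the Krt79 UMIs of kept cells.

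Krt79 cells in the treated libraries stood apart from the other keratinocytes in several genes. The hydrogel library had 15 such cells and the CO hydrogel library 23, but the untreated library had 1. Krtdap, a keratinocyte differentiation protein, was at 3243 against 630 CPM in the hydrogel and 3394 against 456 CPM in the CO hydrogel library. Lgals7, a galectin of stratified epithelia, was at 16223 against 5754 CPM and 18116 against 5703 CPM, so both genes were higher in Krt79 cells. Krt80 went with them, at 208 against 26.6 CPM and 217 against 18.5 CPM. Krt5 was lower, at 2223 against 5743 CPM and 2339 against 6056 CPM. Krt16, at 29.7 against 297 CPM and 12.4 against 274 CPM, and S100a8, at 419 against 13144 CPM and 568 against 6923 CPM, were lower as well.

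Other hair follicle keratins were few. Krt71, a type II keratin of the inner root sheath, gave 162 CPM (145 to 181), 197 CPM (178 to 217) and 220 CPM (205 to 235), a log2 ratio of 0.28 (0.06 to 0.49) and 0.44 (0.25 to 0.63) over untreated. Krt71 lies next to Krt5 in the RefSeq gene order, and there were 2.06, 3.79 and 4.07 UMIs of Krt71 per 100 of Krt5. Its level is thus uncertain where reads of the pair could be mixed. With every cell given equal weight its ratio of CO hydrogel to untreated was −0.15.

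Krt24 and Krt75 had most of their gated UMIs in the CO hydrogel library. Krt24, a type I keratin, had 0, 17 and 100 UMIs, or 0, 8.28 and 26.1 CPM. Its log2 ratio of CO hydrogel to untreated was 4.07 with the untreated library put at the 3-count floor. The counting interval of that Krt24 ratio began lower, at 3.75. Krt75, a type II keratin of the companion layer of the hair follicle, had 4, 5 and 107 UMIs, or 2.07, 2.43 and 27.95 CPM, a log2 ratio of 3.76 (2.36 to 5.66) over untreated and 3.52 (2.25 to 5.17) over hydrogel. The alternatives put the first ratio between 2.65, without doublet removal, and 4.67, with cells weighted equally. Each gene's CO hydrogel UMIs came from 17 cells. Within the keratinocyte-like cluster of that library, Krt24 was at 72.97 CPM in cells with a Krt15 UMI and at 0 in the others, and Krt75 at 77.5 against 1.79 CPM. The remaining hair keratins were at or near 0: Krt32 had 17 UMIs over all gated cells, Krt28 and Krt34 had 1 each, and Krt25, Krt26, Krt27, Krt31, Krt35, Krt36, Krt72, Krt73, Krt82 and Krt86 were among those at 0.

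The simple epithelial pair Krt8 and Krt18 had the lowest ratios to the untreated library of the keratins with a ratio, in the same direction as the smaller ones of Krt17, Krt5 and Krt14. Krt8, the type II partner, gave 326 CPM (301 to 352) in the untreated library, 15.6 CPM (10.7 to 22.0) in the hydrogel library and 21.4 CPM (17.04 to 26.6) in the CO hydrogel library. Krt18, its type I partner, gave 39.3 CPM (30.97 to 49.2), 2.92 CPM and 1.04 CPM. Both were highest in the untreated library. The log2 ratio for Krt8 was −4.39 (−4.95 to −3.87) with hydrogel and −3.93 (−4.28 to −3.59) with CO hydrogel, and for Krt18 −3.75 (−5.24 to −2.56) and −5.23 (−7.15 to −3.82).

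A small set of cells carried that pair. In the untreated library 20 cells had a Krt8 UMI, and the 2 highest held 141 and 119 of the 630. The same 2 cells held 70 of the 76 Krt18 UMIs, and 1 of them had a barcode that another library also had. No CO hydrogel cell held over 12 Krt8 UMIs and no hydrogel cell over 10. At 1000 UMIs per cell the shares with a Krt8 UMI were 5.95%, 1.98% and 1.64% (21.1%, 4.50% and 9.75% at full depth), against 0.47%, 0.13% and 0.07% of fibroblast-like cells. Over the alternatives tried the log2 ratio ran from −5.08 to −3.49 with hydrogel and from −4.38 to −2.51 with CO hydrogel, the smallest when cells were weighted equally. The Merkel cell genes Atoh1 and Isl1 had no UMI in untreated gated cells, and Krt20 had 2. Krt19 and Aqp5, listed with Krt8 and Krt18 for sweat gland or simple epithelia, had no UMI there either. Among 5 untreated cells with a Krt8 UMI at 1000 UMIs, Mmp9, a matrix protease, was at 3382 CPM against 772 CPM in the other cells. Pdpn, a membrane protein, was at 2130 against 1205 CPM. These genes were picked from several that were read, and they also serve as markers of osteoclast-like (Mmp9) and lymphatic (Pdpn) cells. Which cells made Krt8 was not tested.

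The remaining keratins were close to the limit of counting. Krt7, of simple epithelia, had 12, 6 and 5 UMIs, and Krt12, the corneal type I keratin, had 8, 22 and 20, of which 17 of the 22 hydrogel UMIs came from 1 cell. Krt42 had 8, 8 and 15. Krt76, Krt23, Krt20, Krt13, Krt81 and Krt222 had 18, 15, 10, 8, 2 and 1 UMIs over all gated cells, and Krt4, Krt19, Krt39 and Krt40 had none.

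Keratins 2-fold or more apart were counted over members with at least 20 UMIs in the pair of libraries, beside all genes under the same rule. Over untreated, the hydrogel library had 6 of 13 members higher (Krt79, Krt80, Krt1, Krt15, Krt12 and Krt10), where 5.21% of 8336 genes were, and 2 lower (Krt8 and Krt18), where 5.61% were. The CO hydrogel library had 8 of 18 higher (Krt24, Krt77, Krt79, Krt75, Krt80, Krt15, Krt78 and Krt1), against 8.89% of 9363 genes, and the same pair lower, against 2.42%. Both counts of higher members lay above the background share, and both comparisons use the same untreated library. The minimum is over the pair, so a member can reach it through the library where it is high. That holds for Krt24, Krt77, Krt78, Krt75, Krt12, Krt80 and Krt79, with 0, 0, 3, 4, 8, 13 and 19 untreated UMIs. The counts of higher members are thus a description only. CO hydrogel over hydrogel gave 4 of 17 higher (Krt75, Krt24, Krt78 and Krt77), against 7.00% of 9398 genes, and Krt12 lower, against 1.37%. Of those 4, the intervals of Krt77 (−0.30 to 2.63) and Krt78 (−0.19 to 4.02) include no difference. So does that of Krt78 in CO hydrogel over untreated (−0.27 to 3.93). The median log2 ratio of members was 0.28, 0.42 and 0.01, and that of all genes −0.05, 0.07 and 0.10.

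**Figure D4:**
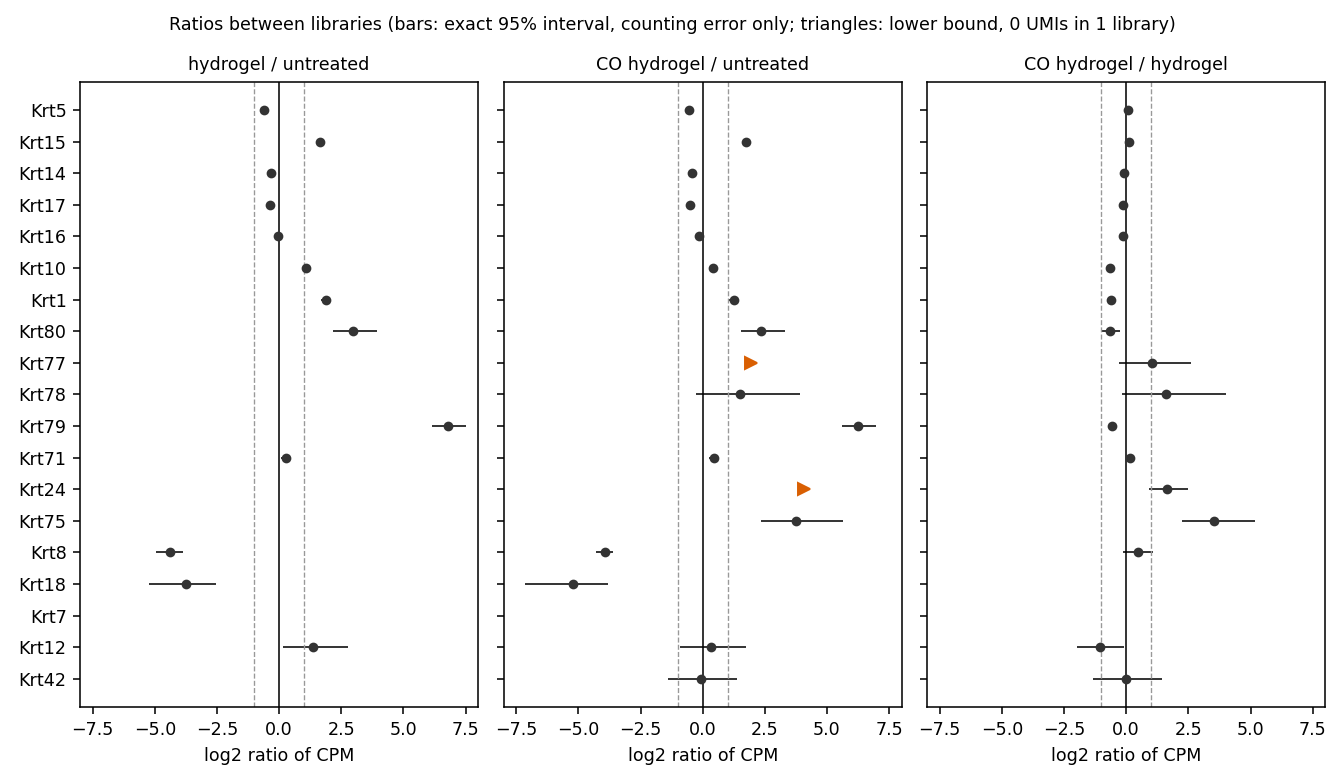
Log2 ratio of each keratin with at least 20 UMIs in the pair, for hydrogel over untreated, CO hydrogel over untreated and CO hydrogel over hydrogel. Bars are exact intervals of counting error and dashed lines mark 2-fold. Triangles are ratios with a library without UMIs put at the 3-count floor, and their counting intervals reach lower. Krt79 stands highest over untreated with hydrogel (6.79), and Krt8 and Krt18 stand lowest in both comparisons with the untreated library.

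By group, the wound-induced keratins took 69.2%, 63.05% and 61.9% of keratin UMIs and the basal keratins 27.98%, 28.6% and 31.7%. The hair follicle group took 0.49%, 4.37% and 3.64%, nearly all of it Krt79 and Krt71, and the suprabasal group 1.21%, 3.87% and 2.66%. The simple epithelial group took 1.05%, 0.09% and 0.09%.

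Genes that work with keratins were read from lists of related functions. Over untreated, 5.21% of all genes were 2-fold higher and 5.61% lower with hydrogel, and 8.89% and 2.42% with CO hydrogel. Desmosomes anchor keratin filaments between cells, and 11 of 11 list members with a row were measured. Over untreated, 2 were 2-fold higher with hydrogel (Dsg1 and Dsc1) and 2 lower (Dsg2 and Dsc2), with 1 higher and 1 lower with CO hydrogel, and median log2 ratios of −0.04 and 0.00. Dsp, the plakin that binds keratin, was level at 1791, 1880.14 and 1844 CPM. Perp, used by the gate, was at 2018, 1798 and 1744 CPM.

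Hemidesmosomes anchor Krt5 and Krt14 filaments to the basement membrane. Of 9 measured genes, 3 were 2-fold lower and none higher with hydrogel over untreated, where 5.61% of all genes were lower. With CO hydrogel 2 were lower and none higher, where 2.42% of all genes were lower. The median log2 ratios were −0.91 and −0.75. Lamb3, a laminin chain of the basement membrane, gave 1434, 353 and 619 CPM and was highest in the untreated library. Col17a1, at 1173, 704 and 693 CPM, and the integrin Itga6, at 875, 593 and 629 CPM, were within 2-fold.

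In the list of cornified envelope and late differentiation genes, 4 of 12 measured genes were 2-fold higher in each treated library over untreated (Krtdap, Sbsn, Cnfn and Sprr1a), where 5.21% and 8.89% of all genes were. None was lower and 8 were within 2-fold, with medians of 0.46 and 0.32. Sprr1a, a cross-linked envelope protein, gave 498, 2499 and 1491 CPM, and Sbsn, a secreted protein of upper epidermis, 312, 1714 and 1246 CPM. Of CO hydrogel over hydrogel, Cnfn was lower and the median was −0.33.

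In the list of wound-edge activation genes, 3 of 19 were 2-fold higher and 8 lower with hydrogel over untreated, with a median of −0.66. Among all genes 5.21% were higher and 5.61% lower. With CO hydrogel 3 were higher and 5 lower, against 8.89% and 2.42% of all genes, with a median of −0.39. S100a8 gave 2274, 11174 and 5928 CPM and S100a9 1913, 10094 and 5230 CPM. Both are among the neutrophil markers too, and their part from other cells was not tested. Among 14 keratinocyte transcription factors, 1 was higher and 1 lower with hydrogel and none higher and 2 lower with CO hydrogel, and Klf4, Klf5, Hopx and Sox9, the best counted, were within 2-fold. Of hair follicle genes other than keratins, 5 of 12 reached the count minimum with hydrogel over untreated, with 1 higher and 1 lower, and 6 with CO hydrogel over untreated, with 1 higher and none lower. The one higher there was Postn, at 100.33, 63.3 and 360.22 CPM, which is also a fibroblast marker.

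Outside the gate, keratin UMIs were spread thinly over all cell classes. The gate held 94.2%, 92.8% and 93.9% of the Krt17 UMIs of kept cells and 95.1%, 93.6% and 93.2% of the Krt5 UMIs. All keratins together came to 159, 166 and 329 CPM in neutrophil-like cells, 49.2, 48.8 and 80.96 CPM in fibroblast-like cells and 55.1, 53.2 and 89.9 CPM in macrophage-like cells, and each class was highest in the CO hydrogel library. Krt17 alone was at 109, 96.9 and 200.26 CPM in neutrophil-like cells, where 10.3%, 9.00% and 16.99% of cells had a UMI at 1000 UMIs per cell. Fibroblast-like cells, deeper at median UMIs of 14877, 13522 and 9157, had 2.66%, 2.61% and 4.39%. Endothelial-like cells stood at 78.1, 81.7 and 192 CPM of all keratins. The CO hydrogel value was 292 CPM with the gated cells of that class kept in it. Krt15 in the endothelial-like cells outside the gate was at 57.7 CPM in the CO hydrogel library against 1.76 CPM in the hydrogel library.

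A few keratins had a different pattern outside the gate. Krt10 had only 47.3%, 55.6% and 45.3% of its UMIs inside the gate, and it was at 15.0, 14.6 and 20.2 CPM in fibroblast-like, 16.5, 21.9 and 20.7 CPM in mural-like and 18.2, 20.4 and 16.7 CPM in proliferating cells, against 1.55, 10.03 and 14.9 CPM in neutrophil-like cells, so the classes stood closer together in the treated libraries. Krt75 was at 42.6, 31.9 and 48.95 CPM in an unnamed cluster led by Fcnb and Mal (cluster 15), which held 154, 95 and 70 of its 321, 302 and 246 UMIs in kept cells. The gate held 1.25%, 1.66% and 43.5% of them. Krt76, a mucosal type II keratin, was in the same cluster at 38.2, 25.5 and 23.1 CPM. Krt79 was at 211 CPM in 85 mast-like cells of the CO hydrogel library, from 44 UMIs, where 24.3% of cells had a UMI at 1000 UMIs per cell, while the other libraries had under 50 such cells. Krt8 was under 2 CPM in fibroblast-like cells of every library, at 1.81, 1.08 and 1.82 CPM.

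**Figure D5:**
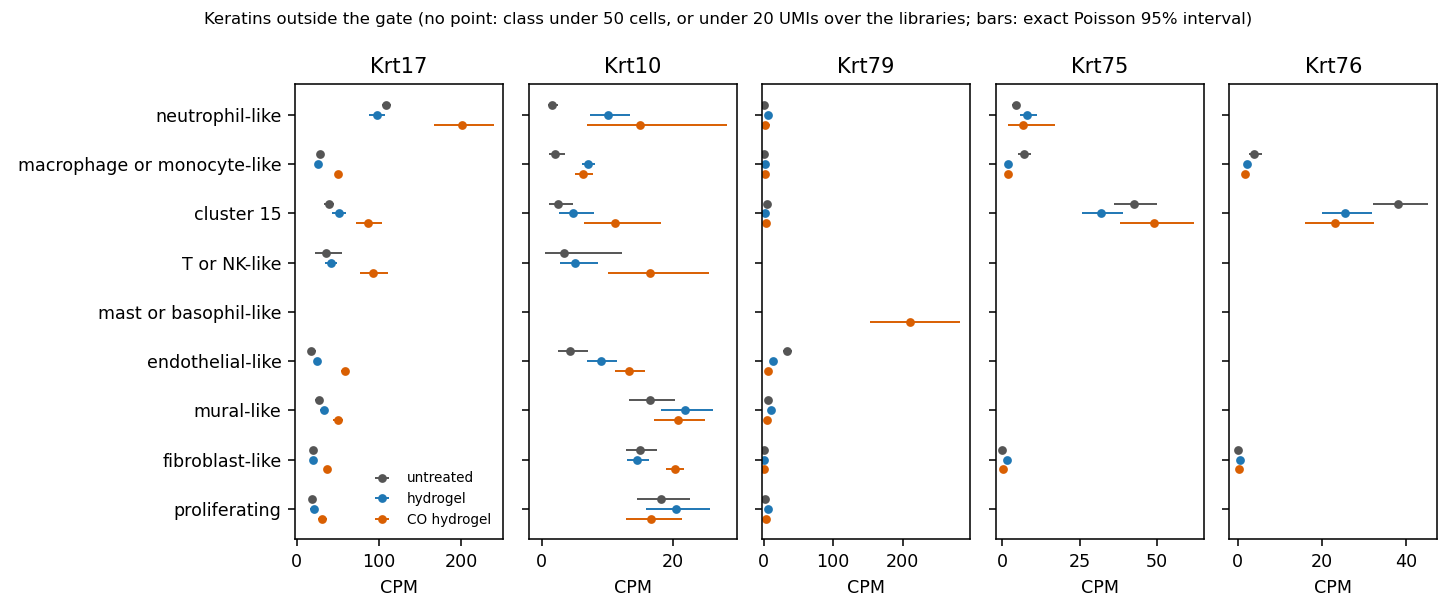
Levels of Krt17, Krt10, Krt79, Krt75 and Krt76 outside the gate in a selection of cell classes by library, in CPM on linear axes that differ between panels; bars are exact Poisson intervals of counting error, and no point is drawn for a class with under 50 cells or under 20 UMIs over the libraries. Among the classes drawn, Krt17 stands highest in neutrophil-like cells of the CO hydrogel library (200.26 CPM), Krt75 and Krt76 in cluster 15, and Krt79 in mast-like cells of the CO hydrogel library (211 CPM).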

How the data were processed

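Single-cell libraries of 3′ transcript ends, 1 per group, were used as the authors deposited them, as filtered matrices of UMI counts with no normalization. Cell Ranger is given as 6.0.1 per the file headers and as 7.0.0 in the notes of the submitters, who also list Seurat 4.2.0 and the rat build rn6. No replicate exists, so no p-value was computed.

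A kept cell had 500 or more UMIs, 300 or more genes and no more than 20% of UMIs from mitochondria. The matrices held 12883, 15442 and 15376 barcodes, where the labels expected about 8000 cells per sample. The highest-ranked Scrublet scores were removed as doublets at a rate of 0.8% per 1000 barcodes (1328, 1908 and 1891 barcodes), since its own calls (0, 437 and 571) were uneven. Cells were clustered by Leiden (scanpy 1.11.5) on 2000 variable genes without keratins. The gate rule gave no minimum, and any UMI of Krt5, Krt14 or Krt17 with any of Sfn or Perp would pass 155, 186 and 479 cells, so a minimum was set. UMIs of gated cells were summed per library and divided by the total to give CPM, with exact Poisson, binomial and conditional binomial intervals (scipy 1.17.1). Ratios needed 20 UMIs over the pair. Shares of cells were read after thinning to 1000 UMIs, which left 84, 101 and 304 gated cells and dropped 11, 10 and 14 shallower ones.

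Members with at least 20 UMIs in gated cells were named, and of each other list at most the 4 genes with the most UMIs. In some lists genes past 2-fold were named as well, and in others they were only counted. The members and lists were chosen with earlier results of these data known. The ratio calculation was tested on simulated data. The closing section gives the effect of 13 other settings and of 1 chosen after seeing the data. The values of 1 gene in the lists are left out of the text.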

Additional observations from a re-analysis of the deposited data

How the results depend on the processing

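Under 13 other settings and 1 chosen after seeing the data, 390 of 506 keratin ratios moved by less than their counting interval. Another 108 moved by more but kept their sign, some growing and some shrinking, and 8 turned. No paired analysis was possible because each group is 1 library, and the cause of a move was not tested unless an alternative's construction shows it. In what follows, ratios are log2, and H/U, C/U and C/H stand for hydrogel over untreated, CO hydrogel over untreated and CO hydrogel over hydrogel.

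With any UMI enough for the gate, the gated shares were 1.45%, 1.47% and 3.64%, the basal ratios −0.34 (H/U), −0.23 (C/U) and 0.11 (C/H), the suprabasal H/U 1.30, and the wound-induced ratios −0.50, −0.58 and −0.079. With a stricter cell filter the untreated gated share was 1.11%, basal C/U −0.13, suprabasal 1.10, 0.66 and −0.44, wound-induced H/U −0.41 and C/U −0.52, and hair follicle C/H −0.46. Without doublet removal the gated shares were 1.07% (hydrogel) and 2.85% (CO hydrogel), basal −0.27, −0.28 and −0.014, suprabasal C/U 2.77 and C/H 1.39, and hair follicle H/U 2.51 and C/U 2.21, while C/H turned for Krt1 (1.14), Krt5 (−0.044), Krt10 (1.70) and Krt12 (0.84), leaving 0 members lower.

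With a stricter gate the CO hydrogel share was 1.89%, basal C/U −0.12 and C/H 0.11, suprabasal C/H −0.54, wound-induced C/U −0.43 and C/H −0.044, hair follicle C/H −0.28, with 0 members lower. Using the keratinocyte-like cluster in place of the gate gave a CO hydrogel share of 2.05%, basal C/U −0.11 and C/H 0.12, suprabasal C/U 1.02 and C/H −0.35, wound-induced C/U −0.43 and C/H −0.030, with 0 members lower. The gate within that cluster gave 1.97%, basal C/U −0.11 and C/H 0.12, suprabasal C/H −0.53, wound-induced C/U −0.43 and C/H −0.029, hair follicle C/H −0.26, with 0 members lower. With a gate that used no keratin, basal C/U was −0.19, suprabasal C/U 0.99 and C/H −0.49, and wound-induced H/U −0.41 and C/U −0.53.

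With every cell weighted equally, basal was 0.16, 0.26 and 0.10, suprabasal 1.24, −0.19 and −1.43, wound-induced −0.26, −0.71 and −0.44, and hair follicle C/U 2.16 and C/H −0.79. Krt5 C/H was then −0.16, Krt10 C/U −0.84 and Krt71 C/U −0.15, and C/H had 2 members higher and 3 lower. With TMM factors (edgeR 4.0.16), basal was −0.17, −0.20 and −0.026, suprabasal C/H −0.71, wound-induced −0.34, −0.54 and −0.20, hair follicle C/H −0.44 and Krt5 C/H −0.027. Without shared barcodes, basal C/U was −0.11 and C/H 0.13, suprabasal H/U 2.97 and C/U 2.42, wound-induced −0.34, −0.43 and −0.093, with 0 members lower in C/H.

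With no minimum count, H/U had 12 members higher and 6 lower, and 5 (C/U) and 6 (C/H) were lower. Keeping gated cells in their class put CO hydrogel endothelial-like cells at 292 CPM. Keratins under 20 UMIs in a pair were given no ratio because of their counts.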
